A study of Homo sapiens with 2 samples.

Results

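Collagens, laminins and integrins are large glycoproteins that cells make on the rough endoplasmic reticulum (ER) and export through the secretory pathway. Collagen chains are hydroxylated, glycosylated and wound into triple helices in the ER, and a procollagen rod is too long for an ordinary transport vesicle, so that dedicated export factors enlarge or shape the COPII coat for it. Laminins are trimers of an alpha, a beta and a gamma chain that polymerise with type IV collagen into basement membranes, and integrins are alpha-beta dimers at the cell surface that bind these matrix proteins. PERK, encoded by EIF2AK3, is an ER membrane kinase that slows translation when unfolded cargo accumulates.

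The genes described here were those with a symbol of a collagen chain (COL, a number, A and a number), a laminin chain (LAMA, LAMB or LAMC with a number) or an integrin subunit (ITGA or ITGB with a number or a letter). Antisense rows, pseudogenes and genes of binding proteins such as ITGB1BP1 were left out. Of 25277 rows in the tables, 23972 lay on the main chromosomes, and 82 of these matched. COL1A2, COL6A6 and ITGB6 were listed at 0 in both samples, which left 79 genes, namely 42 collagens, 12 laminins and 25 integrins.

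RNA came from HEK293 cells, an established human embryonic kidney line. The WT sample and the PERK-KO sample were each kept for 12 h in OXPHOS medium, which had no glucose and held 10 mM galactose, 1 mM pyruvate and 10% fetal bovine serum, so that both genotypes share the medium and no sample in glucose medium is compared here. PERK was disrupted with CRISPR/Cas9 and KO cells were grown from single cells, so that the PERK-KO sample may carry differences of its clone that cannot be told apart from those of the genotype. There was 1 sample per genotype. No difference could therefore be tested, there is no replicate error, and every value below compares these samples only.

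Levels are FPKM (fragments scaled by transcript length and by the number of mapped fragments), a scale on which different genes can be set side by side. The limits in brackets are the confidence limits deposited with each value. They come from 1 library and hold no variation between cultures. Their widths differ between genes of similar level and length, so they do not hold counting error alone. A gene was taken into the counts when its FPKM was at least 1 in at least one sample, which 44 of the 79 members were (20 collagens, 10 laminins and 14 integrins) and 14594 genes in all. Differences are PERK-KO over WT without a pseudocount, and 1.5-fold was the limit for calling a gene higher or lower. The interval given with a ratio combines the limits of both samples at a level of 95%, and the figures call it the counting interval. Limits of the samples can overlap although this interval leaves out 1, so an overlap is not read as equal levels.

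The targeted gene, EIF2AK3, had an FPKM of 5.61 (5.11 to 6.12) in WT and 3.89 (3.44 to 4.34) in PERK-KO, a log2 ratio of -0.53 that did not reach 1.5-fold. A transcript can remain when a small deletion or insertion disrupts the reading frame, so this value does not show whether the protein was made. HSPA5, the main ER chaperone, was at 161 in WT and 679 in PERK-KO. The line's own markers were present as VIM (418 and 378), KRT8 (640 and 437), KRT18 (238 and 202) and NEFL (44.9 and 33.4), whereas PAX2 was under 1 in both. NEFM (0.662 and 5.21) and IRS4 (0.121 and 27.1) were low in WT and higher in PERK-KO, and whether this difference of the samples has a part in those below was not tested. Of 5 fibroblast markers none reached 1, with summed levels of 0.595 and 0.640 and THY1 and FAP at 0 in both samples. Of 4 endothelial markers only PECAM1 did (1.35 and 1.36), with CDH5 at 0 in both, and 3 blood markers summed to 0.108 and 0.650. From the widths of the limits, 1 implied fragment was worth 1.14 times more FPKM in PERK-KO than in WT. This median over members, the common worth, is what a smaller depth would give. The limits of the tested members implied 31.1 to 5940 fragments in WT (median 314) and 40.6 to 5369 in PERK-KO (median 271). These are not read counts. In WT, LAMA4 (2.27, 7228 bases) implied 31.1 fragments and LAMC3 (2.27, 7455 bases) implied 264. A ratio at the common worth treats implied fragments as counts, so limits that are wider in 1 sample also change it.

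Most of the cargo was at a similar level in both samples. Of the 44 tested members, 5 exceeded 1.5-fold upward in PERK-KO (11.4%) and 6 were lower (13.6%), and 33 were neither. Over all 14594 tested genes, 10.1% were higher and 7.54% were lower, so the share of higher members lay near that of all genes and the share of lower members above it. The median log2 ratio of the members was 0.0062, against 0.039 over all tested genes, and it was slightly negative when the samples were rescaled to each other (-0.033 with the median of all genes at 0). In bulk RNA, fewer cells of a type and less RNA per cell cannot be told apart. All 11 members past 1.5-fold had limits that did not overlap between the samples, as had 75.1% of all genes past 1.5-fold. The limits of 27 of the 44 overlapped (61.4%, against 55.2% of all tested genes).

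**Figure D1:**
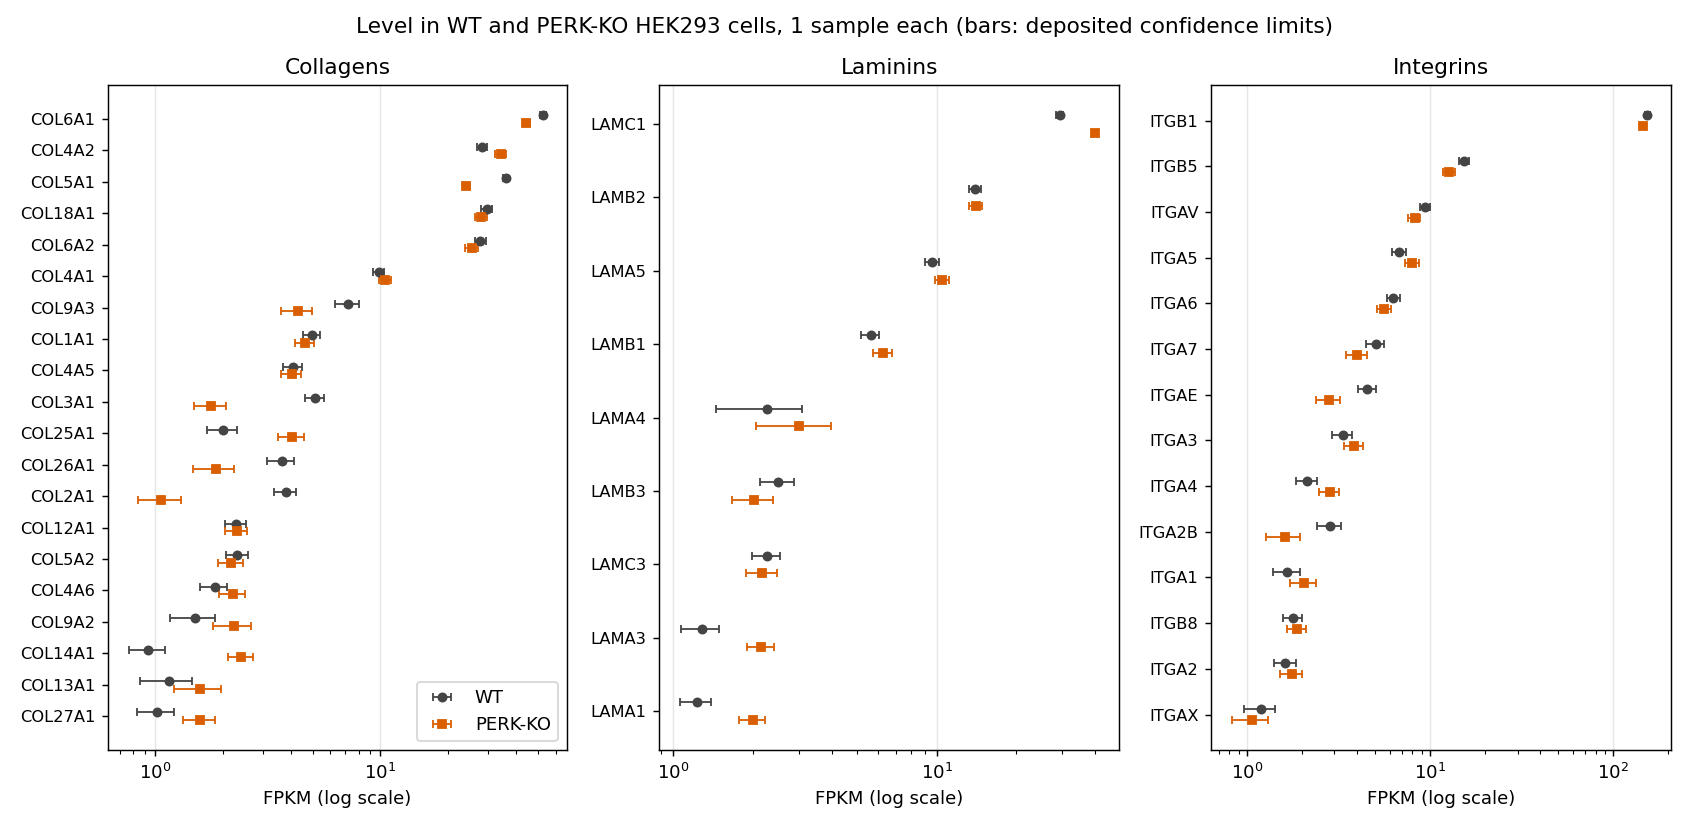
FPKM on a log axis of 20 tested collagens, 9 laminins and 14 integrins in WT (grey circles) and PERK-KO (orange squares), 1 sample each, with the deposited confidence limits as bars and genes ordered by their mean level. ITGB1 stands far above the other integrins, at 153 and 145, and the orange squares of COL2A1 and COL3A1 lie to the left of the grey circles.

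Transcripts of these families are long, and in these samples the ratio moved with transcript length. The 44 tested members had a median transcript of 5865 bases, against 3236 over the 12452 tested genes with an annotated length. Among tested genes of 4000 to 6000 bases the median log2 ratio was 0.17, and it was 0.27 at 6000 to 8000 bases and 0.34 at 8000 bases or more, whereas it was -0.38 below 1000 bases. The members did not sit at these medians in every class, as their own median was -0.41 at 2000 to 4000 bases (8 members), -0.16 at 4000 to 6000 (15 members), 0.27 at 6000 to 8000 (13 members) and 0.21 above that (8 members). Among the 3207 tested genes with a transcript between 4238.25 and 7738 bases, the range of the middle 50% of the members, 11.8% were higher and 1.75% were lower, with a median of 0.20. The part of length in the differences below was not tested.

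**Figure D2:**
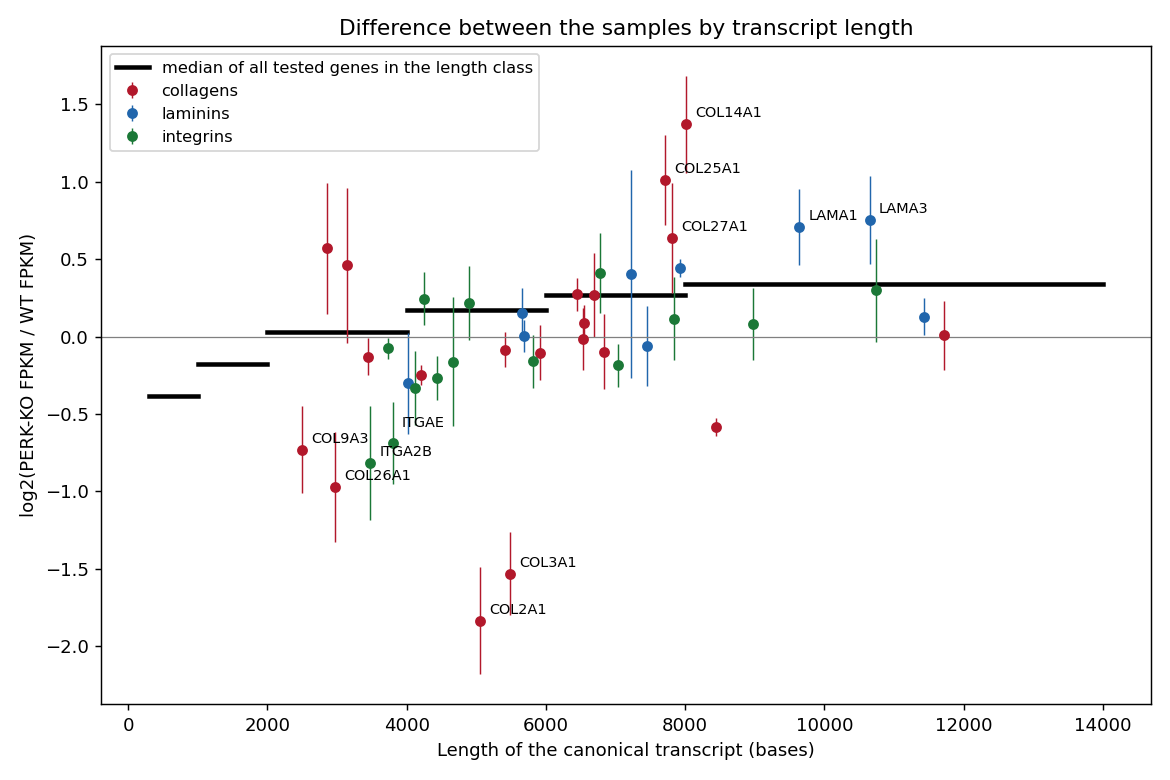
The log2 ratio of PERK-KO over WT FPKM against the length of the canonical transcript in bases for the tested members, with counting intervals as bars, and the median of all tested genes in each length class as black lines (the last class is open and is drawn to the end of the line). The black lines climb from -0.38 to 0.34. The 6 lower members that are named lie below the line of their class, as they must, because no line reaches down to the lower 1.5-fold limit.

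Collagens were the family with the widest spread. Among 20 tested chains 3 were higher in PERK-KO (15.0%) and 4 were lower (20.0%), beside 10.1% and 7.54% of all tested genes and 11.8% and 1.75% of those of the members' length. The share of higher chains was near these and that of lower chains above them. The log2 ratios ran from -1.84 to 1.37 with a median of -0.05, which became 0.09 when chains of low level were let in and -0.25 once a running median over length had been taken off. The summed FPKM of the family was 231 in WT and 208 in PERK-KO, a ratio of 0.90. The ratio of summed FPKM was 0.87 over all rows and 1.08 over those of the members' length. The 5 highest chains, COL6A1, COL4A2, COL5A1, COL18A1 and COL6A2, made up most of that sum, and each differed by less than 1.5-fold.

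The fibrillar collagens, which assemble into the cross-striated fibres of connective tissue and cartilage, had a lower summed level in PERK-KO. It was 54.8 in WT and 36.9 in PERK-KO, or 23.7% and 17.8% of all collagen FPKM, and 5 of 6 tested chains had a ratio below 1. COL5A1 (36.1 and 24.1), just inside the 1.5-fold limit, supplied most of the difference of the sums. COL2A1 (chromosome 12, 48366748 to 48398285, hg19), the chain of cartilage collagen, was at 3.80 (3.37 to 4.23) in WT and 1.06 (0.834 to 1.30) in PERK-KO. It was 3.57-fold lower (interval 2.81 to 4.53), the largest difference among tested members. COL3A1, the chain of type III collagen of skin and vessels, was at 5.13 (4.64 to 5.62) in WT and 1.77 (1.49 to 2.06) in PERK-KO, 2.89-fold lower (2.40 to 3.48). At the common worth of a fragment the ratios would be 3.25-fold and 2.53-fold lower. The transcripts of both measure 5059 and 5490 bases, a class in which only 2.03% of all tested genes were lower.

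COL3A1 lies on chromosome 2 tail to tail with COL5A2, with 19168 bases between them. COL5A2 did not share its difference, as it was at 2.32 (2.06 to 2.58) and 2.17 (1.89 to 2.44), a log2 ratio of -0.10. COL5A1, which forms type V collagen with COL5A2 and helps to start fibrils, was the highest fibrillar chain. It was at 36.1 (35.15 to 37.02) in WT and 24.1 (23.3 to 24.9) in PERK-KO, 1.499-fold lower (1.44 to 1.56), and so lay just inside the limit, which it crossed when the samples were rescaled. The ratio of COL5A1 to COL5A2 was 15.6 in WT and 11.1 in PERK-KO. COL1A1, the main chain of type I collagen, was at 4.97 (4.55 to 5.39) and 4.62 (4.19 to 5.05), while COL1A2, its partner chain, was listed at 0 in both samples. COL27A1, a fibrillar collagen of cartilage, was the one tested fibrillar chain that was higher, at 1.02 (0.828 to 1.22) and 1.59 (1.33 to 1.84), or 1.55-fold (1.22 to 1.98). Its transcript is in the class of 6000 to 8000 bases, in which 15.8% of all tested genes were higher.

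Network collagens of the basement membrane differed little. The 4 tested chains had a median log2 ratio of 0.18, below the 0.27 of all tested genes of 6000 to 8000 bases, the class of their transcripts, and the limits of 3 of the 4 overlapped. COL4A1 and COL4A2 encode the chains of the most widespread type IV collagen and lie head to head on chromosome 13, 134 bases apart in the deposited hg19 coordinates (COL4A1 at 110801310 to 110959496 and COL4A2 at 110959631 to 111165373). COL4A1 was at 9.87 (9.31 to 10.4) in WT and 10.5 (9.87 to 11.1) in PERK-KO. COL4A2 was at 28.4 (26.9 to 29.9) and 34.3 (32.5 to 36.1), 1.21-fold higher (1.12 to 1.30). Although the protein joins 2 COL4A1 chains to 1 COL4A2 chain, COL4A2 RNA was the more abundant, by 2.88 times in WT and 3.27 times in PERK-KO. The interval between both start sites, as RefSeq places them, is shown because it is the stretch that the pair shares. It covers 126 bases on the plus strand of GRCh38.p14 at chr13:110307158-110307283 and is 80.2% G and C, and the capitals mark a CCAAT box.
COL4A1-COL4A2 interval: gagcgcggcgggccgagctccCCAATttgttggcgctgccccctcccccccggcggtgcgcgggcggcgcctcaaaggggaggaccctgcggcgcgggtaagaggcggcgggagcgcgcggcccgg

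The other type IV chains stood lower. COL4A5 and COL4A6 are a head-to-head pair on the X chromosome, with 369 bases between them in the deposited coordinates. They were at 4.08 and 4.04 (COL4A5) and at 1.84 and 2.21 (COL4A6), with overlapping limits for both. COL4A3 and COL4A4, the pair of the glomerular basement membrane, lie on chromosome 2, 5 bases apart in the deposited coordinates. RefSeq places their starts farther apart, at 227164624 (COL4A3) and 227164205 (COL4A4) on GRCh38.p14. Both genes were under 1 in both samples (COL4A4 at 0.361 and 0.273, and COL4A3 at 0.125 and 0.122). The summed share of network collagens was 19.4% of collagen FPKM in WT and 24.9% in PERK-KO.

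Type VI collagen, which forms beaded filaments around cells, held the highest collagen chain. COL6A1 was at 53.0 (51.3 to 54.6) in WT and 44.6 (43.0 to 46.1) in PERK-KO, 1.19-fold lower (1.14 to 1.24) with limits apart. COL6A2 was at 27.8 (26.3 to 29.4) and 25.4 (23.85 to 27.02), with limits that overlapped. COL6A3, the third chain of the usual type VI trimer, was at 0.0347 and 0.0878, which rests on 1.85 and 4.60 implied fragments. Its level was near the smallest amount that can be seen, so no fold is given. COL18A1, a basement membrane collagen whose end fragment is endostatin, was at 29.7 (28.1 to 31.35) and 28.02 (26.4 to 29.6).

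Fibril-associated and transmembrane collagens held the tested chains with the largest upward differences. COL14A1, which coats the surface of fibrils, was at 0.933 (0.761 to 1.10) in WT and 2.41 (2.11 to 2.71) in PERK-KO, 2.58-fold higher (2.08 to 3.21). Its transcript of 8009 bases falls in the longest class, in which 25.7% of all tested genes were higher. COL9A3, a chain of type IX collagen on cartilage fibrils, went the other way, from 7.16 (6.31 to 8.01) to 4.31 (3.62 to 4.99), 1.66-fold lower (1.37 to 2.02), with a transcript in the class of 2000 to 4000 bases, where 4.64% were lower. COL9A2, its partner chain, was at 1.51 (1.17 to 1.85) and 2.24 (1.80 to 2.68), 1.48-fold higher and just inside the limit. At the common worth of a fragment the ratio of COL9A2 would be 1.512-fold, just past the limit. COL9A1 was at 0.0869 in WT and listed at 0 in PERK-KO. The limits of COL9A3 were apart and those of COL9A2 overlapped slightly. COL12A1 was at 2.29 and 2.30, the most even of the fibril-associated chains.

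COL25A1, a transmembrane collagen best known from neurons and motor axon growth, was at 2.003 (1.69 to 2.32) in WT and 4.04 (3.50 to 4.58) in PERK-KO, 2.02-fold higher (1.65 to 2.47). The deposited limits implied a different worth of 1 fragment for this gene than for most members (1.48 times more FPKM in PERK-KO), as can happen when reads are spread over isoforms of different length. From its fragments at the common worth the ratio would be 1.55-fold, still past the limit. Its transcript is in the class of 6000 to 8000 bases, and that of COL26A1 in the class of 2000 to 4000 bases. COL26A1, a secreted collagen first described in testis and ovary, was at 3.64 (3.13 to 4.15) and 1.86 (1.47 to 2.25), 1.961-fold lower (1.53 to 2.51). The 250 bases before the RefSeq start of each (GRCh38.p14, COL25A1 at chr4:109302659-109302908 on the minus strand and COL26A1 at chr7:101362625-101362874 on the plus strand) are shown as those of a higher and a lower chain, each by about the same factor. The capitals in COL26A1 mark CCACG on either strand. The printed stretch of COL25A1 holds none of the motifs searched, but its 300-base window, which runs 50 bases past the start, held CCAAT. The printed sequences of COL25A1 and COL26A1 are 70.0% and 64.8% G and C.
COL25A1: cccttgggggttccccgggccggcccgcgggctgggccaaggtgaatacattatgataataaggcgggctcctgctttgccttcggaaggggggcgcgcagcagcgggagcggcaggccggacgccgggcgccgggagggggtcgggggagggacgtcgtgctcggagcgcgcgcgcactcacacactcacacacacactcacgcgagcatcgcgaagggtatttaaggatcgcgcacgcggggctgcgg
COL26A1: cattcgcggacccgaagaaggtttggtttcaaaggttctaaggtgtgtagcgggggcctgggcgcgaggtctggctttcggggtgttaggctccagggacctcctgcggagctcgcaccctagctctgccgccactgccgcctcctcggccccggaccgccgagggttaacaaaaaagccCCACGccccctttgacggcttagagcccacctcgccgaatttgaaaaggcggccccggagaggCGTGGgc

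**Figure D3:**
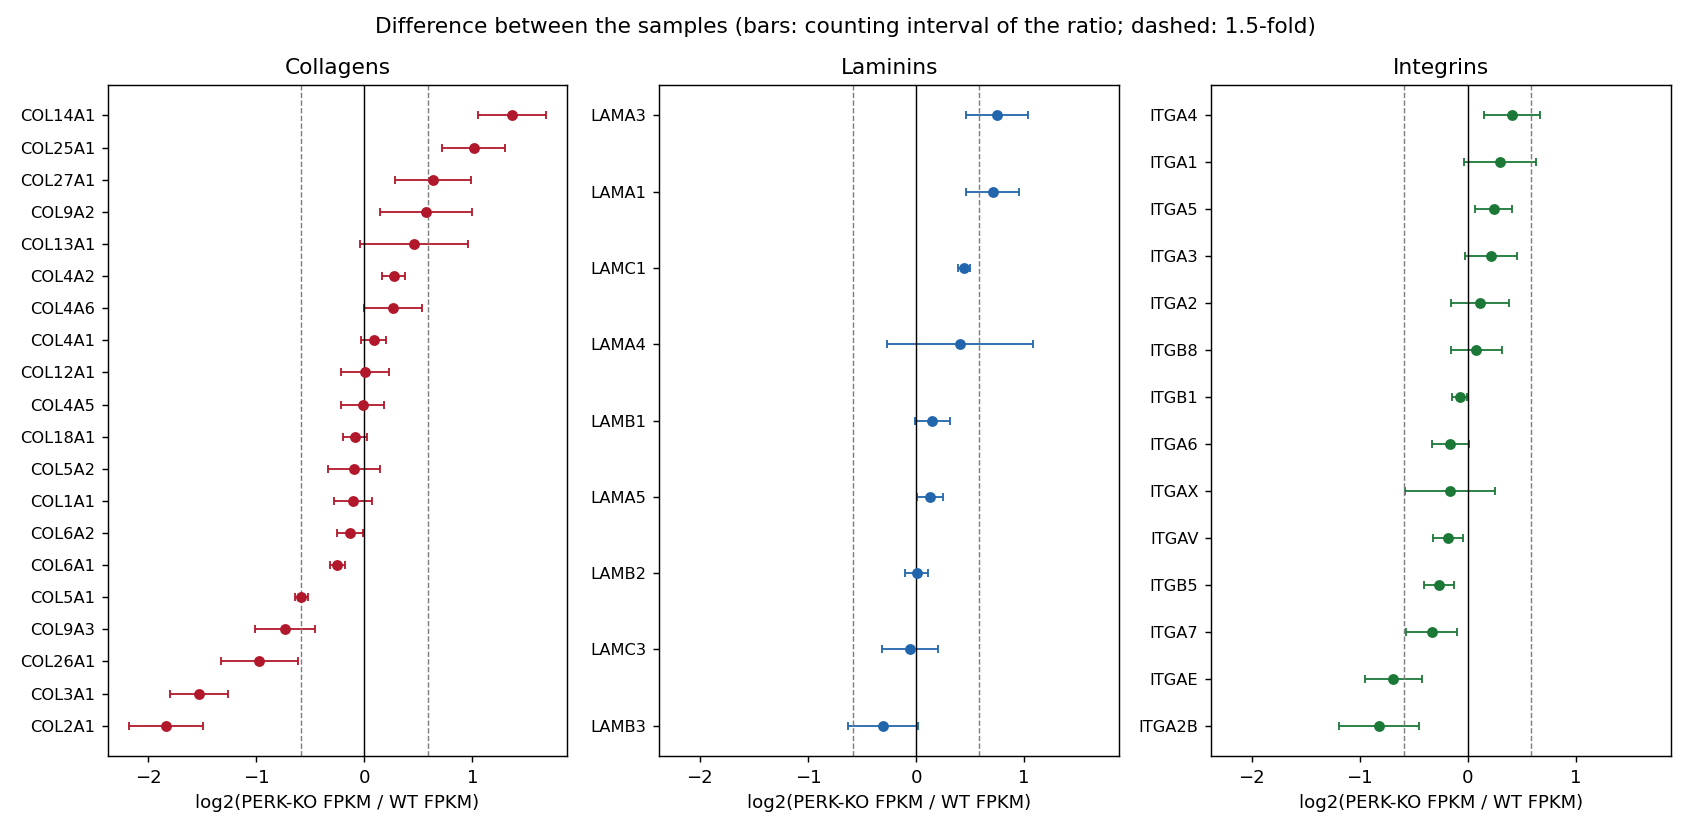
The log2 ratio of PERK-KO over WT FPKM for tested collagens (20), laminins (9) and integrins (14), with the counting interval of the ratio as bars and dashed lines at 1.5-fold. Collagens reach from -1.84 to 1.37, laminins lie mostly to the right of 0 with the highest at 0.75, and integrins lie between -0.82 and 0.41.

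The differences among laminin chains were modest. Of 10 tested chains, 8 had a ratio above 1 (80.0%, against 53.6% of all tested genes and 73.2% of those of the members' length), and the limits of 7 overlapped. More than 1.5-fold higher were 2 (20.0%, against 10.1% of all tested genes, 11.8% of those of the members' length and 25.7% of those of 8000 bases or more), and none was lower. The median log2 ratio was 0.14, but -0.06 once that running median had been taken off, and the chains have long transcripts (median 7341.5 bases). Their summed FPKM was 69.2 in WT and 83.3 in PERK-KO (a ratio of 1.20, beside 0.87 over all rows and 1.08 over those of the members' length). LAMC1 alone supplied most of that difference.

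LAMC1, the gamma chain of most laminin trimers, was at 29.3 (28.4 to 30.2) in WT and 39.9 (38.8 to 41.0) in PERK-KO, 1.36-fold higher (1.31 to 1.42) with limits well apart, or 0.44 as a log2 ratio beside the median of 0.27 for its length class. The beta chains did not share this difference. LAMB2 was at 14.03 (13.3 to 14.7) and 14.08 (13.3 to 14.8), and LAMB1 was at 5.62 (5.17 to 6.06) and 6.24 (5.74 to 6.74). Since a trimer needs 1 chain of each kind, the gamma chain RNA was in excess over either beta chain RNA, with a ratio of LAMC1 to LAMB1 of 5.22 in WT and 6.39 in PERK-KO and of LAMC1 to LAMB2 of 2.09 and 2.83. The 250 bases before the LAMC1 start (GRCh38.p14, chr1:183023170-183023419, plus strand) are shown because this gene carries the largest amount of laminin RNA. They are 79.6% G and C and hold none of the motifs searched.
LAMC1: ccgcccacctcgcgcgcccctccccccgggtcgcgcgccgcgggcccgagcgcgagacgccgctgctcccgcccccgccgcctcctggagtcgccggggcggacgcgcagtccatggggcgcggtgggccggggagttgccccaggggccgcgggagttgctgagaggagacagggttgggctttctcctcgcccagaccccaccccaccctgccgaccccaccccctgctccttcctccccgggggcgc

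Among alpha chains, LAMA5 was the most abundant, at 9.62 (9.04 to 10.2) in WT and 10.5 (9.88 to 11.1) in PERK-KO, and its limits overlapped. LAMA1, the alpha chain of the first embryonic basement membranes, was at 1.23 (1.06 to 1.39) and 2.003 (1.78 to 2.22), 1.63-fold higher (1.38 to 1.94). LAMA3, the alpha chain of epithelial laminin, was at 1.28 (1.07 to 1.495) and 2.16 (1.91 to 2.42), 1.68-fold higher (1.38 to 2.05). Its worth of 1 fragment also departed from that of most members, the other way (0.857), and at the common worth the ratio would be 2.24-fold. Both transcripts are in the class of 8000 bases or more, and neither ratio passed 1.5-fold with 1 FPKM added to both values. LAMA4 was at 2.27 (1.46 to 3.09) and 3.01 (2.06 to 3.95), with wide limits that implied 31.1 and 40.6 fragments.

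LAMB3 (2.501 and 2.03) and LAMC3 (2.27 and 2.18) had overlapping limits. Ordered by level, LAMC1, LAMB2, LAMA5 and LAMB1 held the same first 4 places in both samples, with limits apart between neighbours, and below them LAMB3, LAMA4 and LAMC3 could not be ordered within their limits in WT.

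Integrin subunits held few differences past the limit. Of 14 tested subunits none was more than 1.5-fold higher and 2 were lower (14.3%, against 7.54% of all tested genes and 1.75% of those of similar length), and the median log2 ratio was -0.12. It was -0.28 once the running median over length had been taken off. The summed FPKM was 217 in WT and 204 in PERK-KO (a ratio of 0.94, beside 0.87 over all rows and 1.08 over those of the members' length). Beta subunits made up 78.6% of the family sum in both samples.

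ITGB1, the beta subunit shared by most matrix receptors, was the highest of all members. It was at 153 (148 to 158) in WT and 145 (140 to 150) in PERK-KO, with overlapping limits. The 12 alpha subunits that pair with ITGB1 summed to 36.58 and 37.03, so that ITGB1 RNA exceeded all of them together by 4.19 times in WT and 3.92 times in PERK-KO. Receptors for the RGD motif of fibronectin and vitronectin held the highest alpha subunits, with ITGAV at 9.36 (8.75 to 9.96) and 8.23 (7.61 to 8.84), and ITGA5, the fibronectin receptor, at 6.77 (6.18 to 7.35) and 8.003 (7.33 to 8.68). Neither passed 1.5-fold and the limits of both overlapped, although the ratio intervals of ITGAV (0.80 to 0.97) and ITGA5 (1.05 to 1.33) left out 1.

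ITGB5, which pairs with ITGAV to bind vitronectin, was at 15.3 (14.3 to 16.3) in WT and 12.7 (11.7 to 13.7) in PERK-KO, 1.20-fold lower (1.09 to 1.33). The 250 bases before its start (GRCh38.p14, chr3:124901419-124901668, minus strand) are shown because it was the only tested member whose window held TGATGCAAT, one form of the element bound by ATF4 with a C/EBP partner, here on the opposite strand in capitals.
ITGB5: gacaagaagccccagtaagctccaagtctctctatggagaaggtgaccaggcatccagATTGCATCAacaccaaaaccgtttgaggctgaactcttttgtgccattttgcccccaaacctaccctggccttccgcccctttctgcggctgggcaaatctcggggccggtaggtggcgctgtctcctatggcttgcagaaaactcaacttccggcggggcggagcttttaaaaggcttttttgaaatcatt

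The laminin-binding alpha subunits differed by less than 1.5-fold and had overlapping limits. The ratio interval of ITGA7 (0.67 to 0.94) lay below 1, and those of ITGA6 (0.79 to 1.01) and ITGA3 (0.98 to 1.37) included 1. ITGA6 was at 6.30 (5.79 to 6.81) and 5.63 (5.12 to 6.14), ITGA7 at 5.03 (4.48 to 5.585) and 3.999 (3.49 to 4.51), and ITGA3 at 3.33 (2.93 to 3.72) and 3.86 (3.40 to 4.31). The collagen-binding subunits were lower in level, with ITGA1 at 1.66 and 2.04 and ITGA2 at 1.62 and 1.76, and their limits overlapped as well. ITGA10 and ITGA11, the other collagen receptors, did not reach 1 (0.0199 and 0.0569 for ITGA10, and 0.134 and 0.366 for ITGA11).

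The lower subunits were both ones known mainly from blood cells. ITGA2B, the platelet fibrinogen receptor subunit, was at 2.83 (2.40 to 3.26) in WT and 1.61 (1.26 to 1.95) in PERK-KO, 1.76-fold lower (1.36 to 2.28). ITGAE, the alpha subunit of the receptor for E-cadherin on mucosal T cells, was at 4.53 (4.03 to 5.03) and 2.81 (2.39 to 3.24), 1.61-fold lower (1.34 to 1.94). The blood markers were at or near 0 in WT, so a lower level in PERK-KO could not have been seen. PTPRC was at 0.108 and 0.180, on 1.71 and 2.49 implied fragments. CD3E was at 0 in both samples, and CD14 was at 0 in WT and 0.469 in PERK-KO. ITGB3, the partner of ITGA2B, was at 0.0844 and 0.181, and ITGB7, the partner of ITGAE, was listed at 0 in WT and at 0.0220 in PERK-KO. ITGA4 was 1.33-fold higher (2.13 and 2.83, limits apart) and ITGAX was at 1.19 and 1.06. The 250 bases before the ITGA2B start (GRCh38.p14, chr17:44389650-44389899, minus strand) are shown as those of the integrin with the largest difference, with a CCAAT box in capitals.
ITGA2B: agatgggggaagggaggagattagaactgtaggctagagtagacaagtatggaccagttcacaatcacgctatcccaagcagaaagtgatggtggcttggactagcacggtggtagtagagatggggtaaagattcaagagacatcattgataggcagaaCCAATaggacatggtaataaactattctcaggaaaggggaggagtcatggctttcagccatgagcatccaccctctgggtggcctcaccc

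The promoters were also searched for elements of the unfolded protein response. RefSeq windows of 300 bases, 250 before and 50 after each start, were listed for 56 of the 79 members and 31 of the 44 tested ones. The ER stress response element (CCAAT, 9 bases of any kind, then CCACG), searched on both strands, was in none of the 56 and in 0.0916% of all 27305 genes. TGACGTGG, an element bound by ATF6 and XBP1, was in 1 of 56 (ITGA11, 1.79%) and in 0.927% of all genes, and TGATGCAAT was in 1 of 56 (ITGB5) and in 0.293%. The parts of the first element were common, with CCAAT in 18 of 56 (32.1%, against 39.7% of all genes) and CCACG in 23 of 56 (41.1%, against 42.1%). These parts were added after the longer element had been found in no member. A match describes letters in the window and not a bound site.

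The cell's equipment for this cargo was set beside it. Of 16 genes that fold or modify collagen in the ER, 15 were tested, 2 were higher (13.3%, against 10.1% of all tested genes) and none was lower, with a median log2 ratio of 0.23 against 0.039. PLOD2, which hydroxylates lysines for cross-links, was at 28.6 (27.1 to 30.0) in WT and 48.6 (46.3 to 50.9) in PERK-KO, 1.70-fold higher. At the common worth of a fragment, which also follows the width of the limits, the ratio would be 1.35-fold. GLT25D2, a collagen galactosyltransferase, was at 1.37 and 2.16, or 1.57-fold. SERPINH1, the collagen chaperone HSP47, was at 99.25 and 101, and P4HB, a subunit of prolyl 4-hydroxylase that is also protein disulfide isomerase, was at 263 and 389, just inside the limit at 1.48-fold.

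Export factors showed the largest differences of the 5 partner lists. Of 15 genes of the COPII coat and its cargo helpers, 14 were tested, 8 were higher (57.1%, against 10.1% of all tested genes and 11.8% of those of the members' length) and none was lower, with a median of 0.65. SEC24D, a cargo-binding coat protein needed for procollagen export, was at 3.76 (3.32 to 4.20) in WT and 23.8 (22.6 to 24.9) in PERK-KO, 6.32-fold higher (5.58 to 7.16). MIA3, the receptor TANGO1 that loads collagen into the vesicle, was at 4.38 (4.04 to 4.71) and 10.9 (10.4 to 11.5), 2.499-fold higher (2.28 to 2.73). SEC31A, of the outer coat, was at 21.9 (20.65 to 23.1) and 49.6 (47.4 to 51.7), 2.27-fold higher (2.11 to 2.43). At the common worth of a fragment the ratio of SEC31A would be 1.88-fold. SEC24A, SEC24B, SEC24C, SEC23A and SEC23B were the others past 1.5-fold. On the scale of the common worth SEC24C would be at 1.35-fold and the other 7 past the limit. KLHL12, the ubiquitin ligase adaptor that enlarges COPII coats, was at 10.9 and 12.7, and the GTPases SAR1A and SAR1B had overlapping limits. MIA2 was listed at 0 in both samples. CTAGE5, listed apart from MIA2 and beside it on chromosome 14, was at 3.79 in WT and 4.30 in PERK-KO, with overlapping limits.

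**Figure D4:**
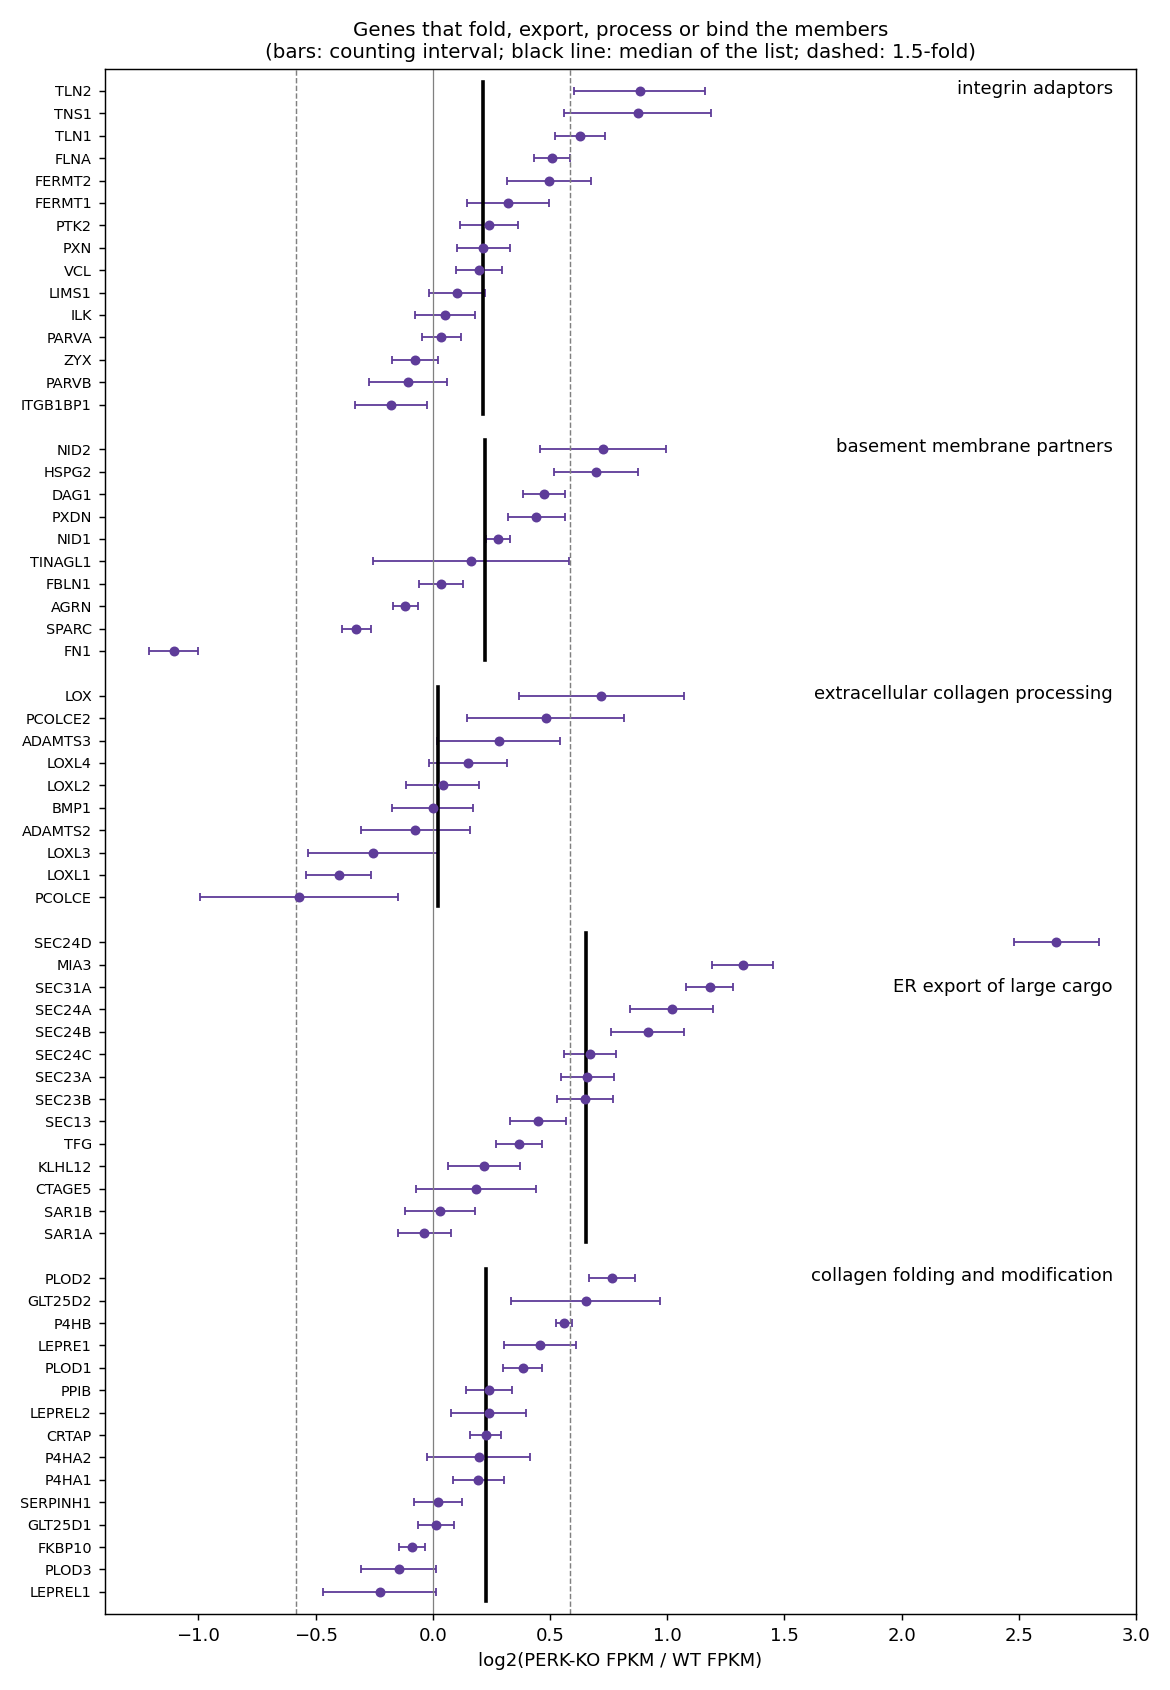
The log2 ratio of PERK-KO over WT FPKM for the tested genes of 5 lists (folding and modification, ER export, extracellular processing, basement membrane partners, integrin adaptors), with counting intervals as bars, the median of each list as a black line and dashed lines at 1.5-fold. The export list has the median farthest to the right, at 0.65, with SEC24D at 2.66, and FN1 is the only gene left of the lower dashed line, at -1.11.

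Other partners were the enzymes and proteins that collagens, laminins and integrins meet outside the cell or under its membrane. Of 13 enzymes that trim or cross-link collagen, 10 were tested, 1 of the 10 was higher (beside 10.1% of all tested genes), LOX at 1.19 and 1.97, and none was lower, with a median of 0.02. Of 10 basement membrane partners, 2 were higher (20.0%), NID2 (1.98 and 3.28) and the perlecan gene HSPG2 (1.97 and 3.18), and 1 of the 10 was lower, beside 11.8% and 1.75% of genes of the members' length, with a median of 0.22. With a running median over length taken off, none was past the limit upward. FN1, encoding fibronectin, was the lower one, at 22.2 (21.2 to 23.1) in WT and 10.3 (9.69 to 10.9) in PERK-KO, 2.15-fold lower (2.003 to 2.31) or 1.62-fold at the common worth of a fragment, although its transcript of 8390 bases is in the class where 1.67% of genes were lower. NID1, which links laminin to type IV collagen, was at 53.7 and 65.2. Of 16 integrin adaptors, 15 were tested and 3 were higher (20.0%, against 10.1% of all tested genes and 11.8% of those of the members' length), the talins TLN1 (18.3 and 28.2) and TLN2 (0.731 and 1.35) and TNS1 (0.662 and 1.21), and none was lower, with a median of 0.22. The count of higher adaptors was 0 with the running median over length taken off, and TLN1 would be at 1.29-fold at the common worth of a fragment. The medians of the basement membrane partners and the adaptors lay close to that of genes of the members' length, 0.20.

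The 35 members under the limit of 1 FPKM comprised 22 collagens, 2 laminins and 11 integrins. Of these, 9 were listed at 0 in WT only, and 4 were at 0 in PERK-KO only. For 10 members the limits implied under 3 fragments in both samples, fewer than the 3 taken here as the detection floor. Among those with more fragments, COL7A1, the anchoring fibril collagen of skin, was at 0.370 (0.277 to 0.463) and 0.712 (0.574 to 0.851), and COL24A1 was at 0.511 (0.382 to 0.640) and 0.826 (0.653 to 0.999), both higher in PERK-KO with limits apart. ITGA11 was at 0.134 (0.0573 to 0.2115) and 0.366 (0.233 to 0.4998), also higher with limits apart. COL5A3 was at 0.207 (0.124 to 0.290) and 0.0473 (0.0050 to 0.0897), lower with limits apart. The limits of these genes implied 5 to 105.5 fragments, and levels under 1 were left out of the counts above. COL28A1 (0.0149 and 0.171), ITGA8 (0 and 0.0924) and COL22A1 (0.0484 and 0) also had limits apart. Each of them had under 3 implied fragments in one sample.

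Of the members near the limit, COL13A1, COL9A2 and COL5A1 lay just inside it at 1.37-, 1.48- and 1.499-fold, and COL27A1, ITGAE and LAMA1 just past it at 1.55-, 1.61- and 1.63-fold.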

How the data were processed

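Polyadenylated RNA of 1 WT and 1 PERK-KO sample had been sequenced. Per the labels and the study's methods, the authors mapped reads to hg19 with TopHat2 2.0.13 and computed FPKM with Cufflinks 2.2.1, and for each sample a table of gene-level FPKM with confidence limits was deposited. The tables hold FPKM although they are named for RPKM, and library depth is not in them. A fragment number was implied from the width of the limits, which can hold more than counting error, so it is not a read count. Ratios, counts and medians were computed with Python 3.11.15, numpy 2.4.6 and pandas 2.3.3, and figures were drawn with matplotlib 3.10.9. Transcript lengths were those of GENCODE 44 on GRCh37, and promoter sequences were those of RefSeq on GRCh38.p14. ITGBL1, an integrin-like gene, was left out of the members. The value of 1 tested laminin gene is not reported here, although the counts and medians include it. For the list of collagen folding genes 66.7% had a length, so a length check was void there.

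The members and lists were chosen with earlier results of these data known. Named genes were the 5 highest members of each family, every tested member past 1.5-fold, their partner chains, and the 3 largest differences in each direction of each list. Other genes were named after their values were seen. Alternatives were a looser and a stricter level filter, adding 0.1 or 1 to both values, setting the median or the 75th percentile equal, summing rows of a gene name, subtracting a running median over length (501 genes), a 2-fold limit and limits that do not overlap, and, added after the values were seen, ratios of implied fragments at the common worth of 1 fragment (the median over members). In data simulated for this comparison with counting noise only (6730 genes with FPKM of at least 10 in both samples), the calls took in 99.0% of 200 genes set to differ 3-fold, and 1.35% of the others. Both simulated samples had the WT worth of a fragment. Every member past 1.5-fold lay below 10 FPKM in both samples, so these shares do not cover the members called here.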

Additional observations from a re-analysis of the deposited data

How the results depend on the processing

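No paired analysis was possible because each genotype has 1 sample, and for the same reason no replicate could be left out. Family and whole-table values were recomputed under the alternatives listed in the methods. Of these values, 112 stayed within the tolerance used and 31 moved, all of them counts. Counts had to stay within 1.5 times. The tolerance for medians was wide, and each median fell within it. With length subtracted, the median log2 ratio of collagens went from -0.05 to -0.25 and that of laminins from 0.14 to -0.06. None of the named genes past 1.5-fold changed direction under the pseudocounts, rescalings and row sums. Adding the same value to both samples cannot turn a direction, and the rescalings shifted log2 ratios by only 0.039 and 0.026. These settings therefore could not have reversed a gene past 1.5-fold. The medians of the members, collagens and laminins, which lie near 0, changed sign under some settings. Without the filter on low values (FPKM above 0 in both), 2496 genes were higher and 1942 lower in PERK-KO, with 14 members higher, and the counts were 9 higher among collagens and 3 higher and 4 lower among integrins. With FPKM of at least 5 required, 872 genes were higher and 702 lower, and 0 members were higher (0 collagens, 0 laminins) and 2 lower (2 collagens, 0 integrins). With 1 FPKM added, 944 genes were higher, 2 members were higher (0 laminins) and 0 integrins were lower. With the running median over length subtracted, 763 genes were higher and 617 lower, and 2 members were higher (0 laminins). At 2-fold, 479 genes were higher and 304 lower, 2 members were higher (0 laminins) and 2 lower (2 collagens, 0 integrins). Among genes as long as the middle of the members, 378 were higher and 56 lower. By construction, fewer genes enter under the stricter filter and the range of length, and fewer pass a stricter limit. The looser filter lets in genes of low level. Adding 1 FPKM brings each ratio nearer to 1, most at low levels. The running median covered only genes with an annotated length, and how far this alone lowered the counts was not tested. The median log2 ratio over all members was -0.21 with length subtracted and -0.11 with FPKM of at least 5. With 1 FPKM added, COL27A1, LAMA3, LAMA1, ITGA2B, ITGAE, GLT25D2, LOX, NID2, HSPG2, TLN2 and TNS1 no longer passed 1.5-fold, and the log2 ratio of COL14A1 was 0.82, that of COL2A1 -1.22 and that of COL3A1 -1.14. In an alternative added after seeing the data, ratios were taken from the implied fragments at one worth of a fragment, and 6 members were then higher and 6 lower, with LAMA3 at a log2 ratio of 1.16 and COL25A1 at 0.63, and PLOD2, SEC24C, TLN1 and HSPG2 no longer past 1.5-fold. COL9A2 (1.512-fold) and the basement membrane partner DAG1 (1.53-fold) passed 1.5-fold upward on that scale only. How much of these changes comes from the width of the limits alone was not tested. Differences of single genes cannot be separated from variation between cultures at this design, whatever the depth.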

Other observations

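Rows that share a symbol stem with the members but encode other products were at the following levels. ITGB3BP, a centromere protein gene named for binding to an integrin, was at 34.3 in WT and 41.1 in PERK-KO, and ITGB1BP1 at 30.0 and 26.5. COL4A3BP, the ceramide transporter CERT, was at 5.78 and 7.55. The antisense row COL4A2-AS1 was at 2.94 and 3.19, beside COL4A2 at 28.4 and 34.3, and whether the counting used the strand of the reads is not given in the sources used here, so that reads of the overlapping genes cannot be told apart. The pseudogene rows COL6A4P1 (0.266 and 0.193), COL6A4P2 (0.364 and 0.405) and LAMB2P1 (0.259 and 0.422) were low, and ITGBL1 was at 0.0311 and 0.0188.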
